A study of Homo sapiens with 4 samples.

Results

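The chaperone machinery described here comprises 33 genes: the cytosolic heat shock proteins Hsp90 and Hsp70, the proteins that work with them, and heat shock factor 1. The 33 genes were chosen by symbol from the 33538 genes in the count matrices, and each symbol was found once. The transcripts were counted cell by cell (scRNA-seq) in 4 libraries of LNCaP, a human prostate cancer line of epithelial type that depends on androgens. Each group is 1 library: LNCaP given the solvent DMSO (0.1%) for 48 h, LNCaP given 10 µM of the antiandrogen enzalutamide (ENZ) for 48 h (LNCaP-ENZ48), and the ENZ-resistant LNCaP derivatives RES-A and RES-B, both maintained in 10 µM ENZ. The agent used for selection differed: it was ENZ itself, at doses raised over time, for RES-A, and the related compound RD-162 for RES-B. Whether either line is a single clone is not given in the sources used here. For the resistant lines, drug present during culture and long-term selection cannot be told apart. All cells had been detached with trypsin and sorted as living cells.

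Hsp90 and Hsp70 are ATP-driven chaperones. J-domain proteins deliver unfolded clients to Hsp70, nucleotide exchange factors release them, and STIP1 bridges Hsp70 to Hsp90, where PTGES3 and immunophilins such as FKBP4 hold steroid receptors in a form able to bind hormone. Heat shock factor 1 (HSF1) switches on many of these genes under proteotoxic stress by binding arrays of the short unit GAA, alternating with its complement TTC, in their promoters. The label of the gene set speaks of cytosolic proteins, but 3 members, HSPA9, HSPD1 and HSPE1, are chaperones of the mitochondrial matrix, and HSF1 is a transcription factor.

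Heat shock elements were looked for in the promoters. Promoter windows from RefSeq (GRCh38.p14, 250 bases before to 50 after each start) were found for 28 of the 33 genes, and none for FKBP4, ST13, STUB1, CRYAB and HSF1. The 3-unit heat shock element was searched on both strands as GAANNTTCNNGAA and TTCNNGAANNTTC, and the 2-unit form as GAANNTTC and TTCNNGAA, which lies inside the longer one. Counted per gene, with any of its windows, the 3-unit element was present in 166 of 27305 genes (0.608%) and in 7 of the 28 members matched (25%), and the 2-unit form in 16.2% of genes and in 15 of the 28 members (53.6%). Per promoter window the shares were 0.49% and 13.5% of 35116. The promoter of the inducible Hsp90 gene HSP90AA1 is shown because this gene has the highest level of the set averaged over the libraries. It covers the 250 bases before the downstream of its RefSeq starts, chr14:102087045-102087294 on the minus strand, and none of these bases is in an annotated exon. Capitals mark the 3-unit element, which ends 75 bases before the start, and a separate 2-unit element.
HSP90AA1: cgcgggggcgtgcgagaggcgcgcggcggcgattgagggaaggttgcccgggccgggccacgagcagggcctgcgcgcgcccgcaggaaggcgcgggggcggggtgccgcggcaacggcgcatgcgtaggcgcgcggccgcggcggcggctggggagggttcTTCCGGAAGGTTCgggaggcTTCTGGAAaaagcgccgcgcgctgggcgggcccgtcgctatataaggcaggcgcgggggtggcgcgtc

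The 30 bases around the 3-unit element closest to the start are shown for the other 6 members that hold one, with the element in capitals, so that they can be set beside the levels given later. The windows are chr6:44247823-44247852 (plus strand) for HSP90AB1, chr11:90223083-90223112 (minus) for CHORDC1, chr11:123062170-123062199 (minus) for HSPA8, chr9:33025268-33025297 (plus) for DNAJA1, chr7:157336865-157336894 (plus) for DNAJB6 and chr2:197500061-197500090 (minus) for HSPD1.
HSP90AB1: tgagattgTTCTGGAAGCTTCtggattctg
CHORDC1: ccgGAAAATTCGCGAAGGTTCCTGAAacgc
HSPA8: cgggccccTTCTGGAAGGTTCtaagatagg
DNAJA1: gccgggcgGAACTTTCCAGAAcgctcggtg
DNAJB6: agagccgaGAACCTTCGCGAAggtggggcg
HSPD1: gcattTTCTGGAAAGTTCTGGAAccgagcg
In CHORDC1 overlapping elements formed a run of 23 bases, in HSPD1 a run of 18 bases, and in the others the element was 13 bases long. The distance from the end of the element to the start was 99 bases for HSP90AB1, 37 for CHORDC1, 42 for HSPA8, 118 for DNAJB6 and 227 for HSPD1, and in DNAJA1 the element lay after the start. HSP90AB1 held a further element 152 bases and HSPA8 a further element 217 bases before the start. Each distance is to the start whose window holds the element. For HSP90AB1 this is the most downstream of its RefSeq starts, and the windows of its upstream starts held neither form.

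The level of a gene is given as UMIs (unique molecular identifiers, each counting 1 captured RNA molecule near its 3′ end) per 1000000 UMIs of the library (CPM), summed over its cells. Such tag counts do not grow with transcript length. Wherever 4 values follow each other, they stand for the DMSO control, the 48 h ENZ library, RES-A and RES-B, in that order. After filtering, 1782, 4315, 4569 and 4061 cells were kept, with 50208831 to 60838227 UMIs per library. LNCaP cells held a median of 27080 UMIs and cells of the other libraries 12138 to 13676, and the filter of the study kept cells with at least 16000 UMIs in the former and 5000 in the latter. With 1 library per group no test is possible. The 95% intervals given cover counting error only, and a difference between libraries cannot be set against a spread between cultures. Processed pseudogenes exist for HSP90AA1, HSP90AB1, HSPA8, HSPD1 and HSPE1, so their levels are uncertain by the reads that match both. A gene is counted as past 1.5-fold when its ratio exceeds that size (0.58 on the log2 scale) and its mean over both libraries is at least 10 CPM.

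All 7 markers of the line that were checked, KRT8 and EPCAM among them, stood at 10 CPM or more in each library. Of the 5 markers of other cell types, PTPRC and KRT5 had 0 UMIs in all 4 libraries. The summed level of the 5 markers was 5.28, 5.06, 212 and 62.2 CPM. VIM made up 2.07, 2.09, 211 and 59.9 CPM of this, which was nearly all of it in RES-A and RES-B only. Its part in the chaperone differences was not tested. The share of cells called S was 6.06, 3.75, 11.1 and 6.87%, and that of cells called G2/M was 11.4 to 18.1%. A pair of libraries shared 2 to 12 cell barcodes.

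Chaperone transcripts took up more of the transcriptome in the resistant lines than in parental LNCaP, while 48 h of ENZ left their sum close to the control. The 33 genes together made up 0.663, 0.67, 1.15 and 1.09% of UMIs. The constitutive and inducible Hsp90 genes, the Hsp70 gene HSPA8 and the mitochondrial HSPD1 and HSPE1 accounted for most of these UMIs. HSF1 itself was at 43.5, 40.7, 40.0 and 42.5 CPM, nearly the same in every library.

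**Figure D1:**
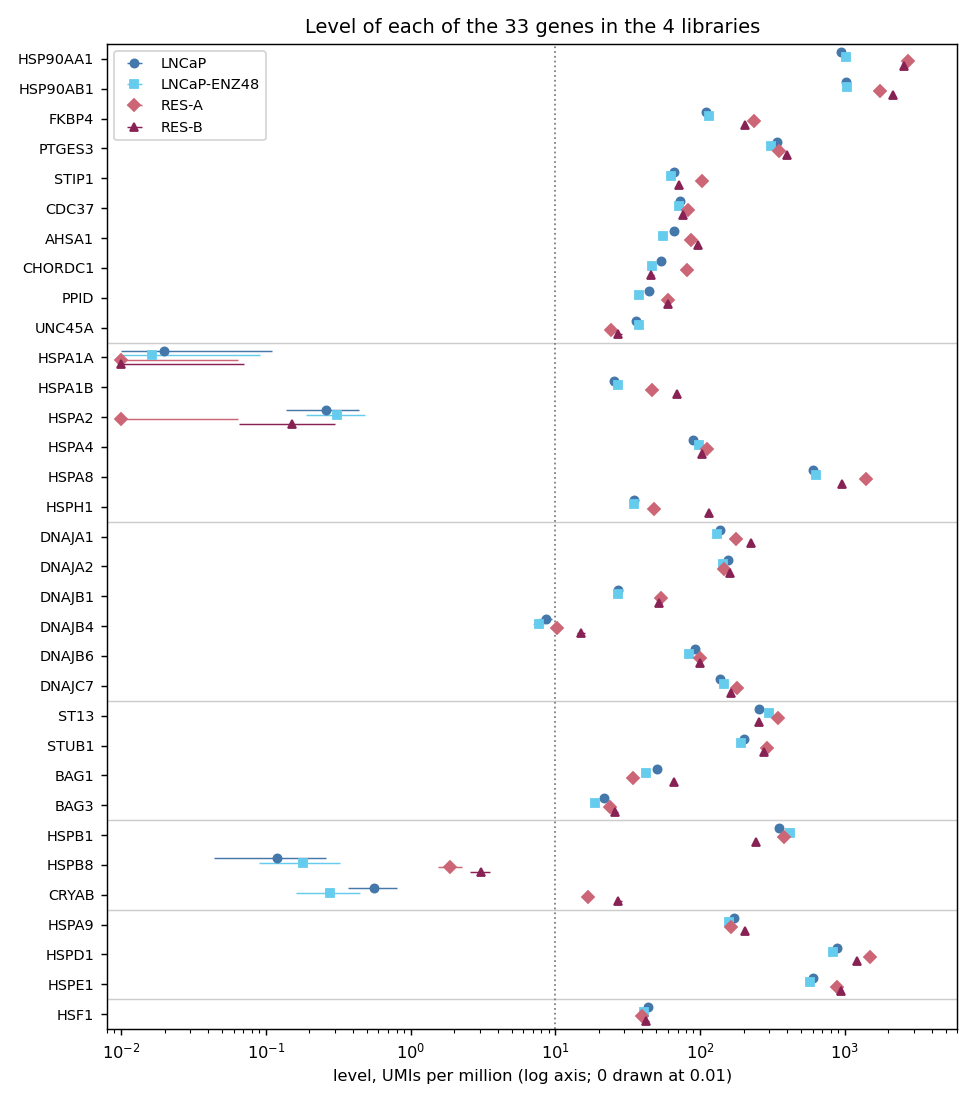
Level of each of the 33 genes in CPM (log axis) in the 4 libraries, with 95% counting intervals. Grey lines separate the Hsp90, Hsp70, J-domain, Hsp70 cochaperone, small heat shock protein, mitochondrial and HSF1 groups, and the dotted line is the minimum of 10 CPM. HSP90AA1 sits at 939.6 and 1024 in the LNCaP libraries and at 2741 and 2550 in the resistant lines.

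After 48 h of ENZ none of the 28 members with enough counts was past 1.5-fold in either direction. Over all 7282 genes with that mean, 0.796% were past 1.5-fold higher and 3.3% lower (1.3% and 2.16% with TMM scaling, which uses a trimmed mean of the gene ratios). The member ratios ran from -0.26 on the log2 scale for AHSA1, which stimulates the ATPase of Hsp90, to 0.25 for the small heat shock protein HSPB1. Their median was -0.06, beside -0.07 over all genes. HSP90AA1 was 1.09-fold higher (log2 ratio 0.12, interval 0.11 to 0.14), and HSP90AB1 differed by 0.02. The median of all genes moved by 0.10 upwards with either alternative scaling, and with it the number of members above 0 went from 10 to 19 of 28, among them STIP1, HSPH1, DNAJA1, DNAJB1, HSPD1, HSPE1, CDC37, STUB1 and HSF1. Directions of these small ratios are therefore not given.

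In RES-A, 8 of 28 members (28.6%) were past 1.5-fold higher than in LNCaP and none was past it lower. The background over 7428 genes was 11.6% higher and 11.3% lower. With TMM scaling STIP1 left the 8, and UNC45A and BAG1 came to be past 1.5-fold lower, so that 7 were higher and 2 lower, beside 9.98% and 13.4% of all genes. The 8 were HSP90AA1, HSP90AB1, FKBP4, STIP1, HSPA1B, HSPA8, DNAJB1 and HSPD1. In RES-B, 11 of 30 members (36.7%) were past 1.5-fold higher and none lower, beside 14.4% and 8.14% of 7570 genes (10.5% and 11.1% with TMM scaling). These were HSP90AA1, HSP90AB1, FKBP4, HSPA1B, HSPA8, HSPH1, DNAJA1, DNAJB1, DNAJB4, CRYAB and HSPE1. DNAJB4 and CRYAB, at 8.56 and 0.558 CPM in LNCaP, met the minimum only through their levels of 15.05 and 27.24 in RES-B. Counts out of 30 against LNCaP or LNCaP-ENZ48 thus include them because they were high in RES-B. The minimum was applied to all genes in the same way. With TMM scaling HSPA8 and HSPE1 left the 11 and HSPB1 came to be past 1.5-fold lower. The median log2 ratio of the members was 0.42 for RES-A and 0.41 for RES-B, beside 0.02 and 0.11 over all genes. Ratios were above 0 for 23 of 28 members (RES-A) and 25 of 30 (RES-B), beside 52.1% and 60.7% of all genes, and with TMM scaling for 22 and 23, beside 47.1% and 50.7%. All 3 comparisons with LNCaP share that library, so its own deviations enter each of them.

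**Figure D2:**
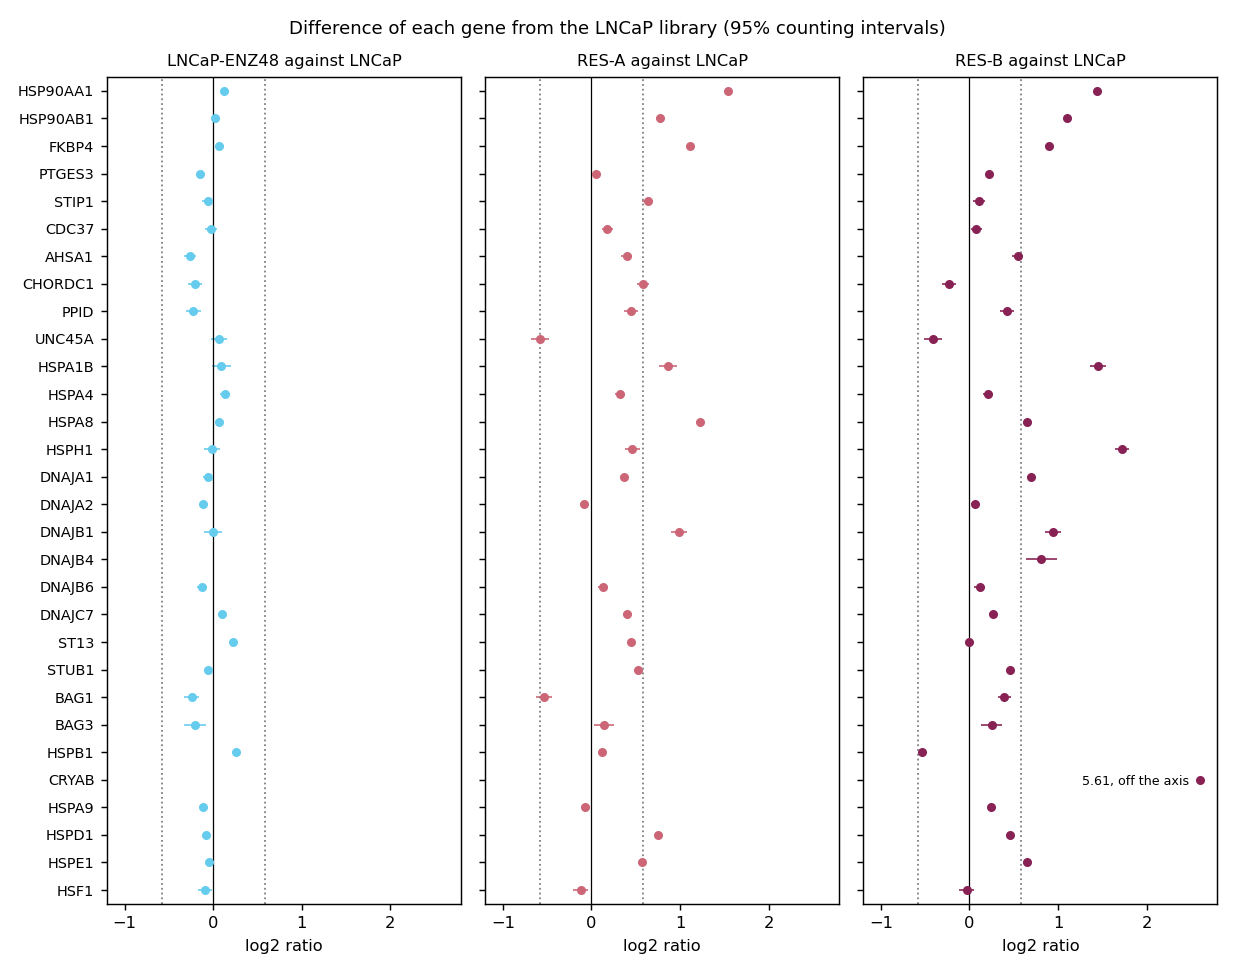
Log2 ratio of each member against LNCaP in LNCaP-ENZ48, RES-A and RES-B, with 95% counting intervals, for members with a mean of at least 10 CPM. Dotted lines mark 1.5-fold. All LNCaP-ENZ48 points lie inside the dotted lines, whereas 8 points of RES-A and 11 of RES-B lie beyond the right one. CRYAB is drawn at the edge of the RES-B panel with its value.

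Several members lay next to the 1.5-fold line, so the counts should be read with these values. CHORDC1, HSPE1 and STUB1 were just inside it in RES-A with log2 ratios of 0.58, 0.57 and 0.53, and UNC45A was just inside it on the lower side at -0.58. The nearest members beyond it were STIP1 at 0.64 in RES-A and HSPE1 and HSPA8 at 0.65 in RES-B. HSPA8 in RES-B came to 0.55 with TMM scaling, inside the line. LNCaP-ENZ48 is closer to the resistant lines in UMIs per cell and was exposed to the same ENZ dose, and against it 13 of 28 members of RES-A and 14 of 30 of RES-B were past 1.5-fold higher, beside 14.4% and 18.8% of all genes. On the lower side 1 member each was past it, UNC45A for RES-A and HSPB1 for RES-B, beside 8.35% and 6.25% of all genes. This reference was chosen after the first results were seen.

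Both cytosolic Hsp90 genes were higher in both resistant lines, in different order. HSP90AA1, the inducible form on chromosome 14, was at 939.6, 1024, 2741 and 2550 CPM. The libraries fell into a low and a high pair, with RES-A highest. None of the counting intervals overlapped, within a pair either. Against LNCaP the level was 2.92-fold higher in RES-A (log2 ratio 1.54, interval 1.53 to 1.56) and 2.71-fold higher in RES-B (1.44, 1.43 to 1.46). HSP90AB1, the constitutive form on chromosome 6, was at 1012, 1029, 1738 and 2167, and here RES-B was highest. Its log2 ratios were 0.78 (interval 0.76 to 0.80) in RES-A and 1.10 (1.08 to 1.11) in RES-B.

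Among the Hsp90 cochaperones the steroid receptor immunophilin FKBP4 differed most. Its level was 110.1, 115, 238 and 205 CPM, again a low and a high pair. This was 2.16-fold (log2 ratio 1.11, interval 1.06 to 1.16) and 1.86-fold (0.90, 0.85 to 0.94) higher than in LNCaP in the resistant lines. PTGES3, the p23 cochaperone that stabilises the closed Hsp90 dimer on steroid receptors, was at 340.2, 307, 353 and 398. The libraries lay close together, and the RES-A ratio of 0.05 moved to just below 0 with TMM scaling. STIP1, which joins Hsp70 to Hsp90, was higher in RES-A only by the size used here, with 65.9, 63.0, 103 and 71.1 CPM. The RES-B level was between those of LNCaP and RES-A.

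CHORDC1, an Hsp90 and SUGT1 binding protein, separated the resistant lines. It was at 54.1, 46.9, 81.1 and 45.9 CPM, so that RES-A lay above both LNCaP libraries and RES-B slightly below them. AHSA1 (66.1, 55.1, 87.2 and 96.4) and the cyclophilin PPID (44.5, 38.1, 60.5 and 59.6) were higher in both resistant lines than in both LNCaP libraries, inside 1.5-fold of LNCaP. CDC37, which recruits kinases to Hsp90, ranged from 71.0 to 82.0. UNC45A, a myosin chaperone, was the only Hsp90 cochaperone of the set with lower values in both resistant lines, at 36.2, 37.7, 24.3 and 27.2.

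The Hsp70 family split by gene. HSPA8, the constitutive cytosolic Hsp70, was at 603.7, 629.7, 1409 and 950.4 CPM. RES-A was highest and RES-B was between it and the LNCaP libraries, with log2 ratios to LNCaP of 1.22 (interval 1.204 to 1.242) and 0.65 (0.63 to 0.68). The stress-inducible HSPA1B showed the opposite order of the resistant lines, with 25.5, 27.2, 46.5 and 69.8 CPM. Its ratios to LNCaP were 0.86 (0.77 to 0.96) and 1.45 (1.36 to 1.54). HSPH1, the Hsp110 nucleotide exchange factor, was at 35.0, 34.8, 48.3 and 116, and RES-B stood well apart from the rest, 3.30-fold above LNCaP (log2 ratio 1.72, interval 1.65 to 1.80) and 2.39-fold above RES-A (1.26, 1.19 to 1.32). HSPA4, a further Hsp110 relative, ranged from 89.5 to 112.

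HSPA1A, the twin of HSPA1B, had 1 UMI in LNCaP, 1 in LNCaP-ENZ48 and 0 in both resistant lines, so no fold is given. Counts of such near-identical genes are uncertain when reads match both. In GENCODE 44 transcripts, 72.9% of the 91-base windows of HSPA1A also occurred in HSPA1B, but none of the last 300 windows, where 3′ reads fall, did. The sum of both genes was 25.6, 27.2, 46.5 and 69.8 CPM. HSPA2, an Hsp70 best known from the testis, had 13, 19, 0 and 8 UMIs. Its 0 in RES-A, counted as 3 UMIs, gives a level 4.95-fold lower than in LNCaP, from very few molecules. The LNCaP level of 0.259 CPM had an interval of 0.138 to 0.443, so this fold is no lower limit.

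Of the J-domain proteins, DNAJB1, DNAJA1 and DNAJB4 were past 1.5-fold in a resistant line. DNAJB1, the main stress-inducible Hsp40, was at 27.3, 27.2, 54.1 and 52.4 CPM, with both resistant lines near each other and 1.98-fold and 1.92-fold above LNCaP (log2 ratios 0.99, interval 0.90 to 1.08, and 0.94, 0.85 to 1.04). DNAJA1, a J-domain partner of HSPA8, was at 138, 132, 178 and 223. Only RES-B was past 1.5-fold, with a log2 ratio of 0.70 (0.65 to 0.74). DNAJB4 was scarce in all libraries, at 8.56, 7.66, 10.2 and 15.1, and reached the count minimum only in comparisons with RES-B, where the log2 ratio to LNCaP was 0.81 (0.64 to 0.99). DNAJA2 (144 to 161), DNAJB6 (84.0 to 100.4) and DNAJC7 (136 to 180) differed by less than 1.5-fold between any libraries.

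No Hsp70 cochaperone was past 1.5-fold against LNCaP. ST13, the Hip protein that stabilises the ADP state of Hsp70, was at 255, 299, 348 and 254 CPM, and the ubiquitin ligase STUB1 (CHIP) at 200, 191, 288 and 276. BAG1, a nucleotide exchange factor that also binds steroid receptors, was at 50.1, 42.2, 34.5 and 65.8, lowest in RES-A and highest in RES-B. BAG3, the stress-inducible BAG protein, stayed between 18.7 and 25.7.

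The small heat shock proteins, which hold unfolded proteins without ATP, gave the largest ratio and also the lowest ratio in RES-B among members with enough counts. CRYAB (αB-crystallin) was at 0.558, 0.279, 16.9 and 27.2 CPM, from 28, 17, 971 and 1432 UMIs. It was thus near absent in both LNCaP libraries and clearly counted in both resistant lines. Against LNCaP the log2 ratio was 4.92 (interval 4.38 to 5.52) in RES-A, where the mean of both libraries was under 10 CPM, and 5.61 (5.07 to 6.21) in RES-B. HSPB8, a BAG3 partner, had only 6, 11, 108 and 160 UMIs, and was therefore in none of the counts, but the same pair of libraries was high. HSPB1 (Hsp27) was at 351, 419, 382 and 242. RES-B was lowest, at a log2 ratio of -0.54 to LNCaP (-0.57 to -0.50) and -0.66 to RES-A (-0.69 to -0.63).

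The mitochondrial chaperonin HSPD1 (Hsp60) was at 882, 835, 1481 and 1214 CPM, and its lid HSPE1 (Hsp10) at 600.3, 578, 888 and 945. Both were higher in the resistant lines, with log2 ratios of 0.75 and 0.57 in RES-A and 0.46 and 0.65 in RES-B. The order of the resistant lines differed between chaperonin and lid, although the genes lie head to head on chromosome 2, where RefSeq windows of theirs overlap by 204 bases. HSPA9 (mortalin), the matrix Hsp70, was at 172, 159, 164 and 204, inside 1.5-fold throughout.

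Set against each other, the resistant lines differed in 6 members by the size used. RES-B was past 1.5-fold higher than RES-A in 4 of 30 members (13.3%), HSPA1B, HSPH1, BAG1 and CRYAB, and lower in 2 (6.67%), CHORDC1 and HSPB1. Over all 7508 genes, 11.9% were higher and 5.87% lower, so that the share of members was close to that of all genes. HSPH1 had the largest ratio, 1.26, followed by BAG1 at 0.93 (interval 0.85 to 1.01) and CRYAB at 0.69 (0.57 to 0.80). HSPA1B was at 0.59, on the line, and at 0.53 with TMM scaling. CHORDC1 was at -0.82 (-0.89 to -0.75). HSPA8 and STIP1 were lower in RES-B at -0.57 and -0.53, inside the line.

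Members with and without the promoter element were found among those past 1.5-fold higher in either resistant line. They were 5 of the 7 with a 3-unit element and 6 of the 21 matched members without one. Matching shares of all genes, with and without the element, were not counted. Whether the element goes with a higher level therefore cannot be read from these member counts. Of the 7 members with a 3-unit element, HSP90AA1, HSP90AB1, HSPA8, HSPD1 and DNAJA1 were the 5, CHORDC1 was on opposite sides of LNCaP in the resistant lines, and DNAJB6 differed from LNCaP by 0.13 and 0.11 on the log2 scale. The 6 without one were HSPH1, HSPA1B, DNAJB1, DNAJB4, HSPE1 and STIP1, and HSPH1 and HSPE1 held neither form. In GENCODE, however, HSPE1 starts at chr2:197500140 on the plus strand. The element counted for HSPD1, within chr2:197500061-197500090, thus lies before this start of HSPE1 as well. The window searched for HSPE1 belongs to a RefSeq start further downstream. It covers chr2:197500129-197500428, so that the element lies outside it. These counts describe letters in a 300-base window and say nothing of binding.

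To see whether a few cells carried the differences, every cell was thinned to 5000 UMIs. The sum over all members had a median of 32, 32, 57 and 54 UMIs per cell. The range from the 5th to the 95th percentile was 19 to 48 and 19 to 49 in the LNCaP libraries, and 40 to 77 and 35 to 75 in the resistant lines. The distributions of the resistant lines thus lay higher as a whole but overlapped those of the LNCaP libraries, more so in RES-B than in RES-A. HSP90AA1 had a median of 4, 5, 13 and 12 UMIs per cell. More than 10 UMIs of it, the 95th percentile of LNCaP, were counted in 3.98, 5.77, 69.2 and 61.4% of cells. For HSP90AB1 the shares above the LNCaP percentile were 3.87, 3.89, 21.3 and 40.9%, and for HSPA8 they were 3.20, 4.06, 40.6 and 14.6%. The shares for HSPD1 were 3.03, 2.39, 22.8 and 12.2%.

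**Figure D3:**
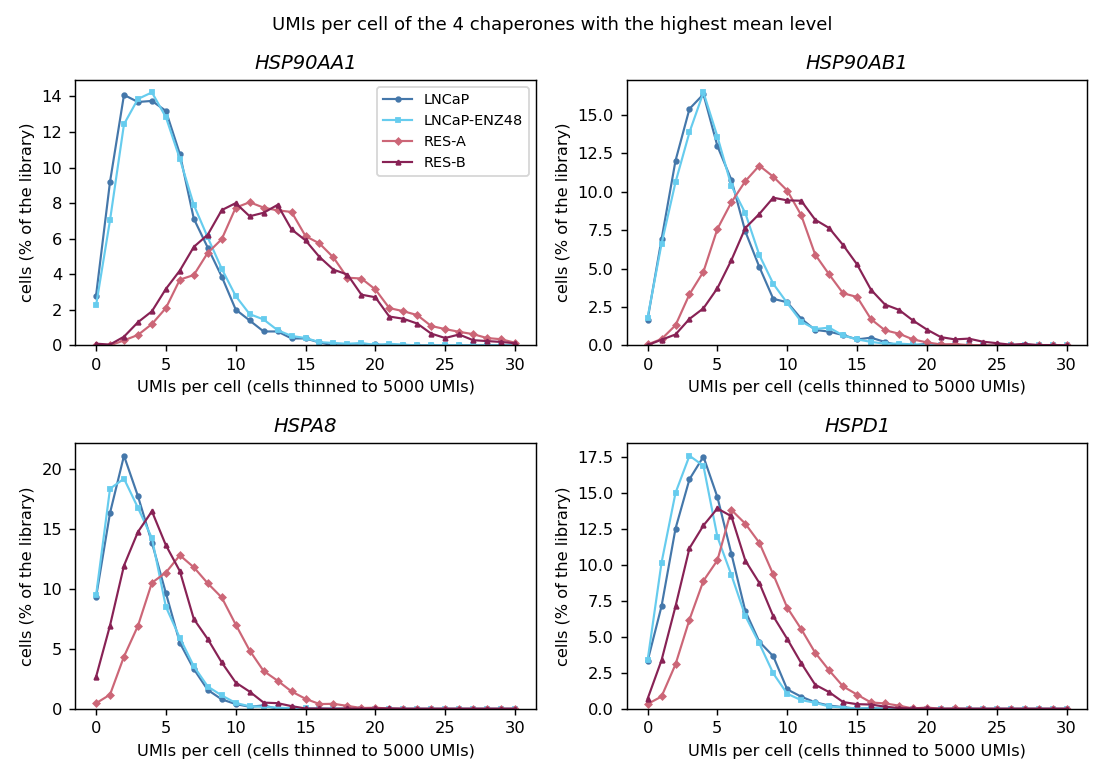
Share of cells (% of the library) by number of UMIs of HSP90AA1, HSP90AB1, HSPA8 and HSPD1, after thinning each cell to 5000 UMIs. The curves of LNCaP and LNCaP-ENZ48 nearly coincide, and those of RES-A and RES-B are shifted to the right as single humps, with RES-A furthest for HSPA8 and HSPD1 and RES-B furthest for HSP90AB1.

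Less abundant members were seen in some cells only. HSPA1B was detected in 11.9, 13.0, 20.3 and 27.7% of thinned cells (unthinned 45.8, 29.8, 41.7 and 55.3%), and HSPH1 in 15.3, 16.1, 22.0 and 41.6% (unthinned 54.0, 35.6, 43.1 and 70.7%). The order of the libraries differed without thinning, where the depth per cell was unequal. CRYAB was found in 0.281% of LNCaP cells (exact binomial interval 0.0912 to 0.654%), 0.162% of LNCaP-ENZ48 cells (0.0652 to 0.334%), 8.12% of RES-A cells (7.34 to 8.95%) and 11.4% of RES-B cells (10.4 to 12.4%), or in 1.57, 0.394, 18.0 and 26.3% without thinning. HSPB1 was the member most unevenly spread over the cells of each library, with a variance of 1.98 to 2.51 times its mean, where counting alone gives 1, and single cells with up to 36 UMIs in LNCaP-ENZ48. HSP90AA1, with a higher mean, reached 1.82 to 2.33 times, and HSPE1, also with a higher mean, stayed at 1.19 to 1.29 times.

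Members varied little together from cell to cell within a library. Over 378 pairs of 28 members, the median Pearson r across the thinned cells of a library was 0.01 or 0.02. The highest r was 0.17, 0.17, 0.14 and 0.24, over 1782, 4315, 4569 and 4061 cells. Values this low in sparse counts that share a depth are given as a description only.

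The cell cycle phase, called from lists of S and G2/M genes, went with different levels of some members. PTGES3 was higher in G2/M than in G1 cells in all 4 libraries, with log2 ratios of 0.41, 0.57, 0.63 and 0.56. The same held for HSP90AA1 (0.33, 0.68, 0.39 and 0.27), DNAJA1 (0.45, 0.58, 0.26 and 0.42) and DNAJB1 (0.45, 0.51, 0.43 and 0.62), with all intervals above 0. HSP90AB1 was lower in G2/M cells throughout (-0.40, -0.25, -0.11 and -0.19). For HSPA8 the ratio was 0.33, 0.36, -0.12 and 0.13, so that RES-A alone was below 0. HSPB1 was much lower in G2/M cells of RES-A (-0.86, interval -0.92 to -0.80) and RES-B (-0.82, -0.90 to -0.74), beside -0.19 in LNCaP and 0.09 in LNCaP-ENZ48. BAG3 was higher in G2/M by 0.90 and 0.87 in the LNCaP libraries and by 0.22 and 0.51 in the resistant lines. Within cells called G1, the log2 ratio of HSPA8 to LNCaP was 1.35 and 0.72 in the resistant lines, close to that over all cells, and that of HSPA1B was 0.75 and 1.42. HSPH1 in RES-B was at 1.57 within G1, and HSP90AA1 at 1.53 in RES-A and 1.47 in RES-B. In S against G1 cells of the 4 libraries, HSP90AA1 was at 0.61, 0.77, 0.38 and 0.40.

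**Figure D4:**
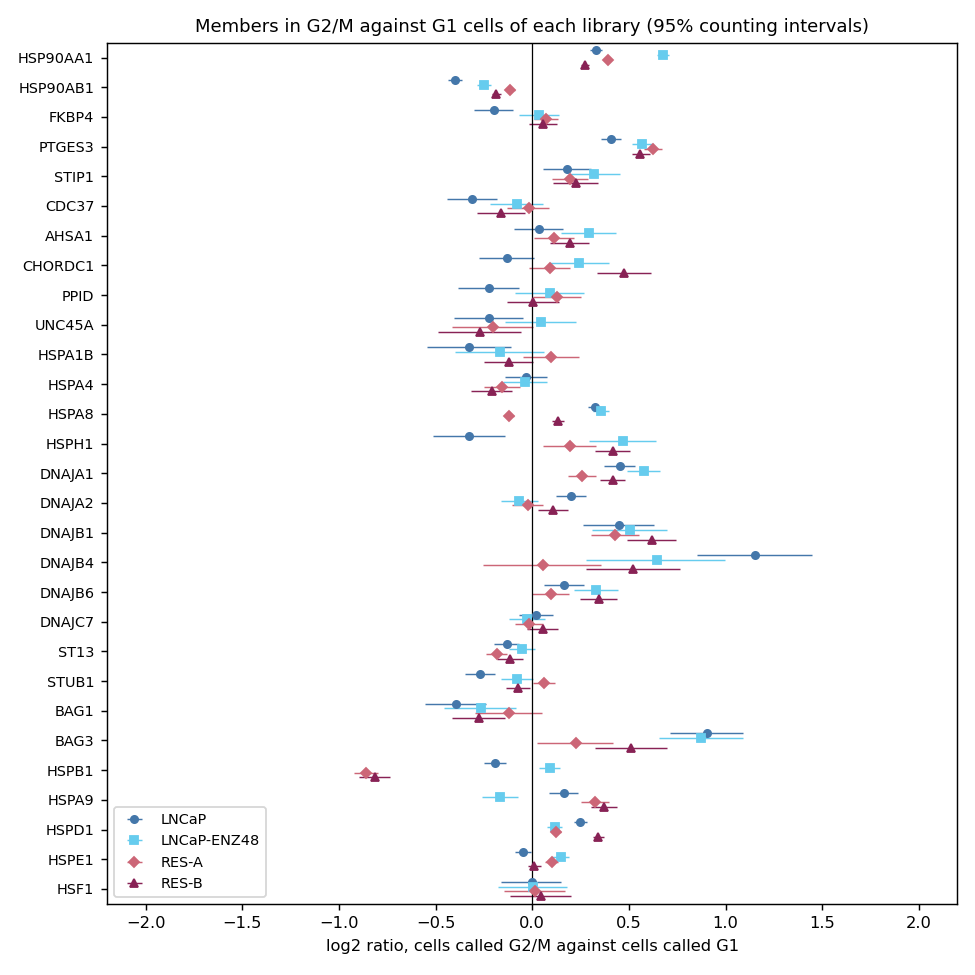
Log2 ratio of each member in cells called G2/M against cells called G1, by library, with 95% counting intervals. PTGES3, HSP90AA1, DNAJA1 and DNAJB1 lie right of 0 in all 4 libraries and HSP90AB1 left of 0, while HSPB1 is near 0 in the LNCaP libraries and near -0.8 in RES-A and RES-B.

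Some members lie among genes whose median ratio was away from 0. Copy number was not measured here. The median log2 ratio of the 50 nearest protein-coding genes, relative to that of all protein-coding genes, was 0.63 around HSP90AB1 in RES-B and 0.24 in RES-A, beside its own ratios of 1.10 and 0.78. Around HSPA1B on the same chromosome it was 0.35 in RES-B and 0.03 in RES-A. The members' own ratios are given without subtracting the median of all protein-coding genes, which was 0.02 in RES-A and 0.12 in RES-B. UNC45A, with ratios of -0.58 and -0.41, lay among genes at -0.58 and -0.44, or -0.56 and -0.32 without that subtraction. BAG1, at -0.54 in RES-A, lay among genes at -0.43. The reverse was seen for HSPA8, which was higher while its neighbours were at -0.50 in RES-A and -0.40 in RES-B, and for CRYAB with neighbours at -0.44 and -0.36. In RES-A it was also seen for DNAJA1, near BAG1 on chromosome 9, at 0.37 among genes at -0.46. HSPH1 in RES-A was at 0.46 among genes at -0.25. Around HSP90AA1 the values were 0.14 and 0.04, around FKBP4 0.24 and 0.16, and around DNAJB1 0.00 and -0.11. In RES-B against RES-A, the genes around HSPH1 were at 0.46, those around BAG1 at 0.39, around HSPA1B at 0.29 and around CHORDC1 at -0.44, on the same side of 0 as these members, while those around CRYAB (0.06) and HSPB1 (0.03) were near 0. What part the surroundings have in a member's ratio was not tested.

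**Figure D5:**
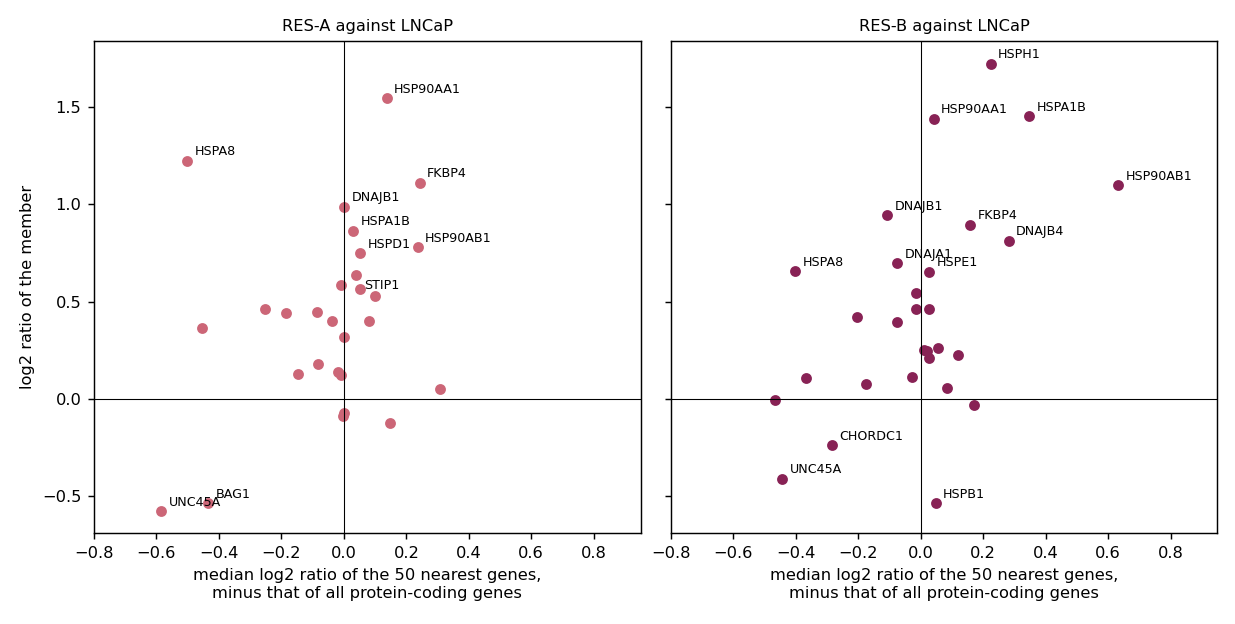
Log2 ratio of each member against LNCaP (vertical) by the median log2 ratio of its 50 nearest protein-coding genes relative to all protein-coding genes (horizontal), in RES-A and RES-B. CRYAB is left out for scale. UNC45A and BAG1 in RES-A lie near their surroundings. HSP90AB1 in RES-B lies above its surroundings, which are also above 0, and HSPA8 lies high above genes with negative medians.

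Further chaperones outside the set were counted from lists of related genes, by the same size and minimum, and their counts are to be read beside the shares of all genes past 1.5-fold, 11.6% higher and 11.3% lower for RES-A and 14.4% and 8.14% for RES-B. All 8 subunits of the cytosolic chaperonin CCT, which folds actin and tubulin, had ratios above 0 in both resistant lines, although TCP1 (0.04) and CCT4 (0.05) in RES-B were within the 0.11 by which TMM scaling lowers all its ratios. Of these, 1 was past 1.5-fold in RES-A and 3 in RES-B. They ran from TCP1 (0.17) to CCT2 (1.08) in RES-A and from TCP1 (0.04) to CCT8 (0.75) in RES-B, and from CCT5 (-0.15) to CCT3 (0.14) in LNCaP-ENZ48. Between the resistant lines they ran from CCT2 (-0.40) to CCT8 (0.26). The 6 prefoldin subunits, which pass clients to CCT, had none past 1.5-fold. Their extremes were PFDN2 (-0.14) and VBP1 (0.21) after 48 h of ENZ, PFDN2 (-0.39) and PFDN5 (0.34) in RES-A, PFDN2 (-0.25) and PFDN6 (0.54) in RES-B, and PFDN5 (-0.27) and PFDN6 (0.38) between the resistant lines.

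Of the other Hsp90 cochaperones, 2 of 8 (RES-A) and 2 of 9 (RES-B) were past 1.5-fold higher, with CACYBP the highest in both (0.90 and 1.06). The lowest in RES-A was FKBP5 (-0.15). After 48 h of ENZ FKBP5, an immunophilin gene induced by androgens, was lowest at -0.88, and between the resistant lines SUGT1 was highest (0.27). Of 8 other Hsp70 genes and cofactors, 2 were past 1.5-fold higher in RES-A and 3 in RES-B, where 1 was lower. BAG2, an inhibitor of STUB1, led with 2.49 and 2.37 (6.41, 6.69, 36.0 and 33.2 CPM), and BAG4 was lowest at -0.35 and -0.97. The extremes were HSPA13 (-0.46) and HSPA12A (0.10) in LNCaP-ENZ48, and HSPA4L (-1.34) and BAG6 (0.39) between the resistant lines. Among 14 other J-domain genes, 1 was past 1.5-fold higher and 1 lower in RES-A, and 4 higher and 1 lower in RES-B. DNAJC3, a J-protein of the endoplasmic reticulum (ER), was lowest in RES-A (-0.59) and highest in RES-B (1.19) and between the resistant lines (1.77). DNAJC1 was highest in RES-A (0.89), DNAJB14 lowest in RES-B (-0.92) and between the lines (-0.60), and in LNCaP-ENZ48 DNAJC9 (-0.28) and DNAJC8 (0.16) were the extremes.

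The ER counterparts of Hsp70 and Hsp90 were distinct between the resistant lines. Among 6 organelle paralogs and their cofactors none was past 1.5-fold in RES-A and 3 were higher in RES-B. HSPA5 (BiP) was at 249.6, 318, 291 and 988 CPM, the highest of the list in LNCaP-ENZ48 (0.35), in RES-B (1.98) and between the resistant lines (1.76). HSP90B1 was highest in RES-A (0.43). The lowest values were those of GRPEL2 in LNCaP-ENZ48 (-0.29) and RES-A (-0.46), and of TRAP1, the mitochondrial Hsp90, in RES-B (-0.24) and between the lines (-0.22). The heat shock factor list held HSF2 and the HSF1 binding protein HSBP1, at -0.28 and 0.19 after 48 h of ENZ, 0.04 and 0.47 in RES-A, 0.12 and 0.47 in RES-B, and 0.07 and -0.01 between the lines.

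The steroid receptor genes NR3C1, PGR and NR3C2, of the client list, were each below 2 CPM in every library. Immediate early genes, which detaching and sorting can induce, were counted as a list of 10. Their sum was 183, 158, 206 and 265 CPM, and 5 of them had enough counts. In LNCaP-ENZ48 the extremes were ATF3 (-0.80) and JUNB (0.04), in RES-A ATF3 (-1.33) and JUN (0.74), in RES-B ATF3 (-0.47) and JUN (1.61), and between the resistant lines IER2 (-0.47) and JUN (0.87). Their part in the chaperone differences was not tested.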

How the data were processed

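The authors counted 3′ scRNA-seq reads (10x Genomics, version 3 chemistry) as UMIs, and the deposited matrices hold raw counts per gene and cell. The submitters' processing notes name Cell Ranger 3.0.2. Cells were kept by the per-library filters of the study: 3000 to 7000 genes and 16000 to 50000 UMIs in LNCaP, 1500 to 5000 genes and 5000 to 25000 UMIs in the others, and at most 15, 15, 17 and 20% mitochondrial UMIs. Doublets were not removed beyond these upper limits. Counts were summed over the 1782 to 4569 cells of each library and scaled to 1000000 (CPM), with exact Poisson intervals, and ratios got exact conditional binomial intervals (95%), a step tested on simulated data. With 1 library per group there was no test, and no group holds separate cultures. A gene needed a mean of 10 CPM, and a 0 was counted as 3 UMIs. For per-cell values each cell was thinned to 5000 UMIs, and phases were called with scanpy 1.11.5.

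Members and lists were chosen with earlier results of these data known. Values in all libraries are given for members past 1.5-fold in a comparison, for the 6 most abundant and for HSPA1A and HSPA1B, and from each other list the highest and lowest ratio are named. Some genes of these lists are not reported here. CCT4 is outside that rule and was named after its value was seen. Alternatives were TMM (edgeR 4.0.16, R 4.3.3) and median-ratio size factors, all barcodes, 1 filter for all libraries, G1 cells, thinned cells, other minimums and a 2-fold size. LNCaP-ENZ48 as reference was added after seeing the data. Positions are from GENCODE 44 (33113 of 33538 gene IDs matched) and promoters from RefSeq (GRCh38.p14). Python 3.11.15, numpy 2.4.6, scipy 1.17.1, pandas 2.3.3 and matplotlib 3.10.9 were used.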

Additional observations from a re-analysis of the deposited data

Results flagged for a closer look

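The counting intervals of RES-A and RES-B lay on opposite sides of LNCaP for 5 of 28 members, and with 1 library each the difference was not tested. These 28 had enough counts in both comparisons. The share of all genes meeting this rule was not counted, so the 5 cannot be set against it. With counts this deep the intervals are narrow, and ratios as small as those of DNAJA2 meet the rule. For CHORDC1 the log2 ratio was 0.58 (RES-A) and -0.24 (RES-B). For BAG1 it was -0.54 and 0.39, and for HSPB1 0.12 and -0.54. For HSPA9 it was -0.0712 and 0.2474. For DNAJA2 it was -0.0884 and 0.0571, and the RES-B value passed to below 0 with TMM scaling (-0.05) and with size factors (-0.04).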

How the results depend on the processing

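No paired analysis was possible because each group is 1 library, and for the same reason no replicate could be left out. Relative to scaling by total UMIs, TMM moved the median of all genes by 0.10 for LNCaP-ENZ48, -0.05 for RES-A and -0.11 for RES-B. Members past 1.5-fold lower in RES-A then numbered 2 (UNC45A and BAG1) and in RES-B 1 (HSPB1), with size factors 1 (UNC45A, beside 12.7% of all genes) and 1 (HSPB1, beside 10.8%), and within G1 cells 2 of 28 in RES-A (10.9%). Between the resistant lines, 4 of 30 were lower with size factors (7.25% of all genes) and 2 of 30 higher in thinned cells (12.1%). A minimum of 50 CPM left 7 of 23 higher in RES-B (14.2%). At 2-fold, 3 of 28 (RES-A, 3.74%) and 5 of 30 (RES-B, 4.82%) were higher than in LNCaP, and of 30 members 1 was higher (3.37%) and 0 lower (1.7%) in RES-B than in RES-A. Against LNCaP-ENZ48, 13 were higher and 1 lower in RES-A, and 1 was lower in RES-B. The median over members was 0.48 in RES-A with thinned cells and 0.37 with TMM, 0.30 (TMM) and 0.31 (size factors) in RES-B, and 0.04 with both in LNCaP-ENZ48. Between the lines it was -0.02 with size factors and -0.04 at the higher minimum. Of 476 alternative values for 68 ratios of the members given in all libraries by rule, 314 stayed within the counting interval, and the largest move was 0.37. Over all 30 members with enough counts, 36 of 812 alternative values changed sign, in 17 of 116 ratios, each at most 0.09 in size. Depth limits HSPA1A, HSPA2 and HSPB8 most, with few UMIs in each library.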
